A study of Rattus norvegicus with 24 samples.

Results

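The comparison described here is that of acrylamide with control in thyroid glands of female rat pups killed in the morning. It comprises 8 of the 24 arrays of the series, chosen because their titles name the morning: 4 from control pups and 4 from acrylamide-treated pups. Morning collection was at 10 AM, an hour that the titles do not give. All animals were RccHan Wistar rats. Per the labels, dams of the treated group took in 3 mg of acrylamide per kg and day with their drinking water, starting on gestational day 6, the pups then received the same dose until postnatal day 35 ± 3, and controls of the same age drank tap water. Per the labels 5 females were taken at this hour, and no label links an array to an animal or a litter, so the errors measure the spread between these samples, which may be partly technical. Each array is a whole gland, in which fewer cells of a type and less RNA per cell cannot be told apart. The study asked which expression differences go with thyroid effects of acrylamide.

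The thyroid makes its hormones in follicles. Follicular cells take up iodide through the sodium iodide symporter Slc5a5, Duox enzymes supply hydrogen peroxide, and iodine is coupled to tyrosines of thyroglobulin, Tg. The transcription factors Pax8, Nkx2-1, Foxe1 and Hhex maintain this cell type, and thyrotropin acts on it through Tshr. Calcitonin-producing C cells lie between the follicles, and the parathyroid glands, thymus tissue, trachea, oesophagus and skeletal muscle lie close by. Acrylamide is a small electrophile that reacts with thiols. Cyp2e1 oxidises it to glycidamide, and glutathione transferases conjugate both compounds to glutathione.

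Levels are log2 processed signals minus the 75th percentile of the array, so that 0 is a bright probe and each step of 1 is a doubling. The share of spots well above background ranged from 71.5% to 82.3% between arrays, and between 121 and 318 probes per array had only saturated spots, which were set aside. Slide 1 held 3 control and 2 acrylamide arrays, and slide 2 held 1 control and 2 acrylamide arrays, so within-slide differences on slide 2 rest on control array 4 alone. The acrylamide arrays varied more than the controls: the median SD over genes was 0.44 with acrylamide and 0.23 in controls (n = 4 each), and 82.2% of genes had the larger SD with acrylamide. Acrylamide array 1 stood apart, with 1051 genes more than 2 log2 units from the median of the controls, against 10 to 97 on single control arrays and 197 to 241 on the other acrylamide arrays.

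Markers of the labelled tissue were checked first. Nkx2-1 stood at 2.85, 3.46, 3.24 and 2.64 on control arrays 1 to 4 and at -4.35, 1.90, 1.73 and 2.92 on acrylamide arrays 1 to 4. Slc5a5 stood at 2.11, 2.35, 2.42 and 2.06 in controls and at -6.44, 1.62, 1.04 and 3.04 with acrylamide. Pax8 stood at 2.74, 3.29, 2.98 and 2.71 in controls and at -4.70, 1.81, 1.63 and 3.05 with acrylamide. Follicular markers were thus bright on 7 arrays and lower by several log2 units on acrylamide array 1, where Slc5a5 was not well above background. Tg was saturated on every array but that one, where it read -0.85. Calca, which encodes calcitonin, behaved alike, at 4.67 to 5.25 in controls, 4.11, 4.16 and 4.74 on acrylamide arrays 2 to 4 and -6.73 on acrylamide array 1. The library labelled acrylamide replicate 1 thus holds little of the markers of its labelled tissue. For many genes and lists the value without it is given too, but not for all that it moved.

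Other arrays carried markers of neighbouring tissues. Krt13, a keratin of squamous epithelium such as that of the oesophagus, stood at 3.57 and 3.28 on acrylamide arrays 1 and 3, at -0.91 and -4.04 on arrays 2 and 4, and at -4.66, -2.39, -5.58 and -4.61 in controls. Bcl11b, a T cell transcription factor, stood at 1.05 on acrylamide array 2 against -4.39 to -2.14 on the other 7 arrays. Col2a1, the main collagen of cartilage, stood at 2.71 on control array 4 and at 1.71 and 2.24 on acrylamide arrays 2 and 3, against -2.90 to -0.16 on the remaining 5. Markers of squamous epithelium and of T cells were thus high on 2 and 1 of the acrylamide arrays, and that of cartilage on arrays of both groups.

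**Figure D1:**
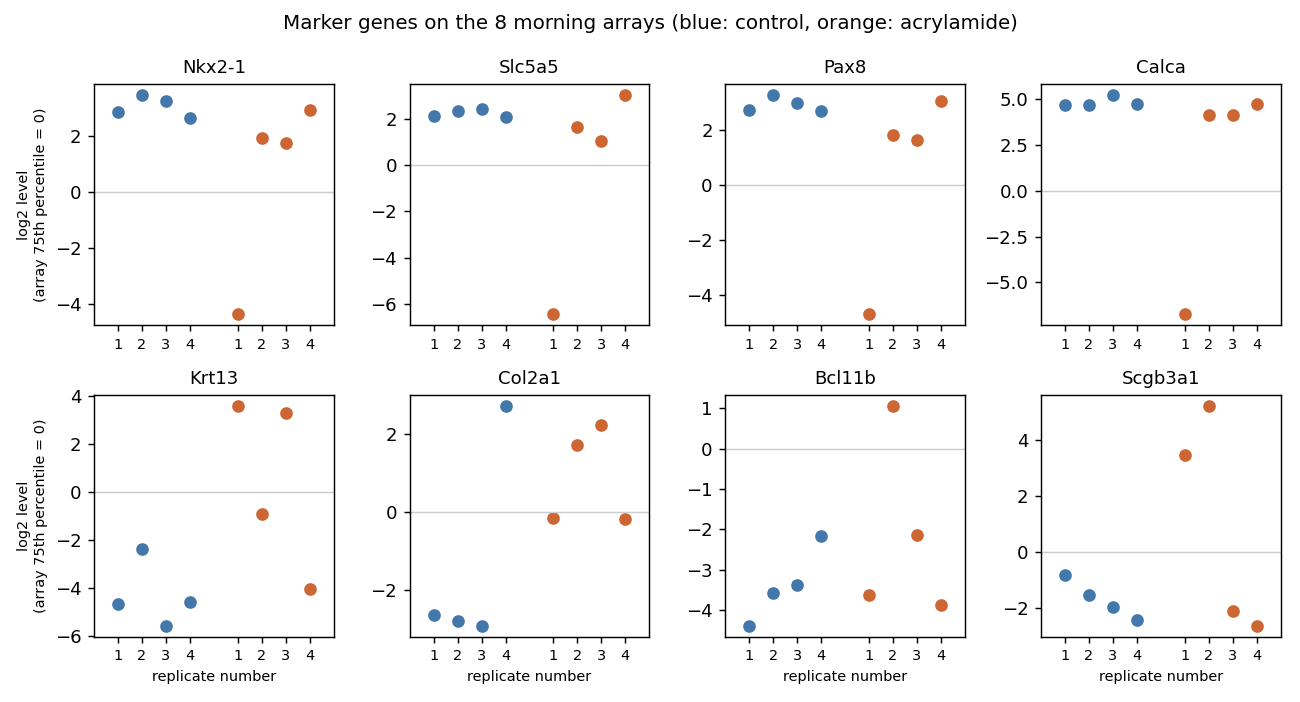
Log2 levels of 8 marker genes on the 4 control (blue) and 4 acrylamide (orange) morning arrays; each point is 1 array, the grey line marks the array's 75th percentile, and vertical scales differ between panels. Nkx2-1, Slc5a5, Pax8 and Calca are low on acrylamide array 1, and Krt13 and Scgb3a1 are high on 2 arrays, Col2a1 on 3 and Bcl11b on 1.

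With this spread no probe passed. Limma called 0 of 30234 probes tested (0%) at a Benjamini-Hochberg adjusted p under 0.05, and the lowest adjusted p was 0.457. A fit of all 24 arrays of the series, with 1 pooled spread, called 111, of which 21 were higher and 90 lower. At an unadjusted p under 0.05 there were 3272 probes (10.8%), of which 979 (3.24%) were higher and 2293 (7.58%) were lower with acrylamide. The 10 spike-in probes were also lower with acrylamide on this scale, by -0.70 to -0.25, and their part in the excess of lower probes was not tested. Counted over genes with 1 probe each, 31.6% of those at an unadjusted p under 0.05 were higher here and 19.3% with the normexp background correction. The following genes are therefore described by their values, and none is said to have changed in these 8 arrays.

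One probe was taken for each of 13581 genes that were well above background and measured on all 8 arrays. For 1244 of them (9.16%) the 4 acrylamide and 4 control arrays did not overlap, with 258 (1.9%) higher and 986 (7.26%) lower. The median difference over all genes was -0.08 and 43.3% of genes had a difference above 0. These shares are the background against which the counts in gene lists are read. Without acrylamide array 1 the arrays did not overlap for 1320 genes (9.72%).

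Among genes higher with acrylamide, the smallest unadjusted p-values belonged to Lrrc14b, a leucine-rich repeat gene, and Gstm1, a mu class glutathione transferase. Lrrc14b stood at -6.11, -7.55, -7.24 and -5.81 in controls, where no array was well above background, and at -2.08, -4.93, -4.21 and -3.56 with acrylamide. On this scale that is at least 5.56-fold higher. The bound was taken against the lowest level well above background on each control array, or the gene's own level where that was higher. Gstm1 stood at -1.25, -1.43, -1.57 and -1.60 in controls and at -0.12, -0.46, -0.54 and -0.95 with acrylamide, a difference of 0.95 (SE 0.22), or 1.93-fold. All 4 acrylamide arrays lay above all controls, and without acrylamide array 1 the difference was 0.81 (SE 0.21).

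Ass1, argininosuccinate synthase of the urea cycle and of arginine recycling, showed a split group. It stood at -4.55, -4.68, -4.68 and -4.66 in controls and at -1.87, -1.79, -1.71 and -4.41 with acrylamide. Acrylamide arrays 1, 2 and 3 thus lay together and array 4 lay next to the controls. The difference was 2.20 (SE 0.56), and in the fit without acrylamide array 4 it was 2.85 with an adjusted p of 0.00692 in limma, the single probe called in any of the 8 fits that left out 1 array.

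The probes behind these values are shown because the readings depend on what they match. The first 2 belong to the genes just described; the 3rd is a second probe of Slc5a5 whose values differ from those given above. Positions are on rn4, as in the scanner files, and the sequences are those of the arrays, written 5′ to 3′. The Ass1 probe, A_44_P447373, spans chr3:10620727-10622079 on the plus strand, a stretch longer than its 60 bases. The Gstm1 probe, A_43_P11776, lies at chr2:203575796-203575855 on the minus strand, and the Slc5a5 probe, A_64_P080233, lies at chr16:19053093-19053152 on the plus strand.
Ass1: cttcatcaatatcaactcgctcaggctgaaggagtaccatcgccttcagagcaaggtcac
Gstm1: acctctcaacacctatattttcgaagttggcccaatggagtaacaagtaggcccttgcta
Slc5a5: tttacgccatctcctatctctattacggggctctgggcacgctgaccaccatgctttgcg
An annotation of exons on rn4 was not used here.

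Other leading genes also had all acrylamide arrays above the controls. Wif1, a secreted inhibitor of Wnt proteins, stood at -4.14, -4.17, -4.89 and -4.38 in controls and at -3.53, -3.05, -2.44 and -3.54 with acrylamide (difference 1.25, SE 0.30). Dhps, the enzyme of the first step of hypusine synthesis, differed by 1.24 (SE 0.32), with controls from -2.56 to -2.13 and acrylamide arrays at -0.29, -1.46, -1.74 and -0.92. Lamb3, a laminin chain of epithelial basement membranes, differed by 0.87 (SE 0.21), and Bdh1, a dehydrogenase of ketone body metabolism, by 1.04 (SE 0.27). Dhps was highest on acrylamide array 1, and without that array its difference was 0.97 (SE 0.25).

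Larger differences came with wider spread. Fhl2, a LIM domain cofactor, stood at -4, -4.75, -5.23 and -4.04 in controls and at -1, -2.95, -3.29 and -2.36 with acrylamide (2.11, SE 0.51; 1.64 without acrylamide array 1). Cep72, a centrosomal protein, differed by 2.07 (SE 0.50) and was highest, at -2, on acrylamide array 2, with 1 of 4 control arrays well above background. Krt17, a keratin of basal and appendage epithelium, differed by 4.80 (SE 1.24), with 2.01, -0.77, 0.36 and -4.28 on the acrylamide arrays against -5.92, -3.46, -5.80 and -6.70. Its groups overlapped, 1 of 4 control arrays was well above background, and acrylamide arrays 1 and 3 were the highest, as for Krt13. Krt17 differed by 3.91 without acrylamide array 1. Crlf3 differed by 1.07 (SE 0.27) with no overlap. Vash2, a vasohibin, was well above background on no control array. It was 1.87-fold higher on this scale, but its fitted difference was -0.14, on the other side of 0, with the normexp correction. That correction, which compresses dim values, lowered the other dim genes too: Lrrc14b stood at 0.55 (SE 0.30), Wif1 at 0.31, Cep72 at 0.44, Fhl2 at 0.78 and Ass1 at 0.90, and Krt17 at 2.54.

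Genes lower with acrylamide had tighter groups. Marveld2, which encodes tricellulin of the tight junctions where 3 epithelial cells meet, stood at -3.54, -3.05, -3.40 and -3.50 in controls and at -5.39, -4.50, -4.81 and -4.65 with acrylamide. The difference was -1.46 (SE 0.24), or 2.76-fold lower, and -1.28 (SE 0.20) without acrylamide array 1. Cxcl13, a chemokine that draws B cells into lymphoid follicles, stood at -0.04, 0.15, 0.15 and 0.29 in controls and at -2.89, -1.07, -1.96 and -1.93 with acrylamide, a difference of -2.10 (SE 0.35), or 4.29-fold lower. Its lowest value was again on acrylamide array 1, without which the difference was -1.79 (SE 0.26), and it was -1.60 on slide 1 and -2.70 on slide 2. With normexp Marveld2 stood at -0.72. The probe of Cxcl13 lies on rn4 at chr14:15127379-15127438.

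Of the other members of this group, Bend7 differed by -1.18 (SE 0.22) with acrylamide arrays from -5.04 to -4.29 and controls from -3.72 to -3.36. Grid1, a delta-type glutamate receptor subunit well above background on 3 control arrays and 1 acrylamide array, differed by -1.71 (SE 0.34), and Ppp1r9a, the actin-binding scaffold neurabin, by -1 (SE 0.21). Abracl, with controls from 2.96 to 3.76 and acrylamide arrays from 1.51 to 2.54, differed by -1.31 (SE 0.27). In each of these the arrays of the groups did not overlap. RGD1562890 (-1.32, SE 0.27), Zfp608 (-1.05, SE 0.22), Fam171a2 (-1, SE 0.21) and Pcyox1l (-0.94, SE 0.20) also lay lower on all 4 acrylamide arrays. Ctbp2, a transcriptional corepressor, differed by -0.95 (SE 0.20), but its other probe above background stood at 0.08 (SE 0.50).

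**Figure D2:**
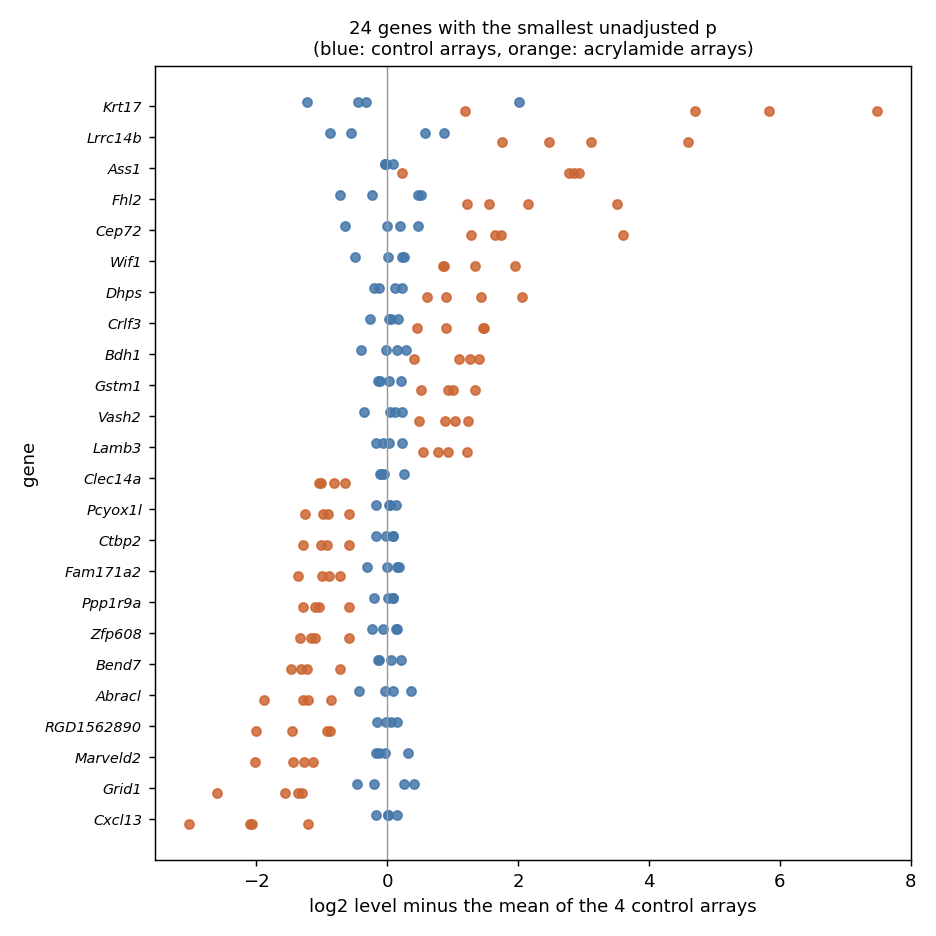
Log2 level of each morning array minus the mean of the 4 controls, for the 12 genes higher and the 12 genes lower with acrylamide that had the smallest unadjusted p; blue points are control arrays and orange points acrylamide arrays. The groups are apart for every gene drawn but Krt17, and for Ass1 acrylamide array 4 lies beside the controls.

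Most follicular genes averaged lower with acrylamide, with overlapping arrays. Of 16 genes of hormone synthesis, 14 were measured on all 8 arrays: 14 of 14 had a negative difference, with a median of -0.93, beside 43.3% of all genes above 0 and a median of -0.08. In 3 of the 14 the acrylamide arrays were all lower, beside 7.26% of all genes, and 0 passed the test. Slc5a5 on acrylamide array 4 lay above every control. Duox2, the peroxide-generating oxidase, stood at 2.20, 2.47, 2.43 and 2.03 in controls and at 0.82, 1.80, 1.21 and 2 with acrylamide (-0.82, SE 0.28). Iyd, the deiodinase that recycles iodide from iodotyrosines, stood at 0.54, 0.59, 0.48 and 0.08 in controls and at -7.14, -0.68, -0.97 and 0.02 with acrylamide. In both genes acrylamide array 4 was close to the lowest control.

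The size of these differences depended on acrylamide array 1, and the sign of the list did not. Without it the median of the 14 genes was -0.51, with 14 of 14 still negative and 3 not overlapping, beside 9.72% of all genes. Slc5a5 differed by -2.42 (SE 1.76) with it and by -0.33 (SE 0.44) without it. The second Slc5a5 probe, whose sequence is printed above, read -2.28 ± 0.24 in controls and -2.08 ± 0.90 with acrylamide (SD, n = 4 each), so the 2 probes of this gene differ in sign. Kcne2, a potassium channel subunit needed for iodide uptake, differed by -0.96 (SE 0.31) and stood at -1.70 on acrylamide array 4, within the controls. On slide 1 alone the median of the list was -0.76 and on slide 2 it was -0.82. The slide 2 value compares acrylamide arrays 1 and 4 with control array 4, so it also contains acrylamide array 1. List means there were -3.77 and -0.50 on acrylamide arrays 1 and 4, and -0.68 on control array 4.

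Regulators of the follicular cell gave the same picture. Of 12 genes of the transcription factor and thyrotropin list 10 were negative, with a median of -1.33 (-0.72 without acrylamide array 1, when 12 of 12 were negative). In 3 of the 12 the acrylamide arrays were all lower, beside 7.26% of all genes. Foxe1, a forkhead factor of thyroid development, stood at 5.4, 5.76, 5.43 and 6.05 in controls and at 3.62, 4.40, 5.31 and 4.75 with acrylamide (-1.14, SE 0.35). Hhex, a homeobox factor, stood at 2.37, 2.42, 2.96 and 2.16 in controls and at -2.35, 1.81, 1.43 and 1.32 with acrylamide. Both genes were lower on all 4 acrylamide arrays. Without array 1 the differences of Hhex, Pax8, Nkx2-1, Tshr and, in the synthesis list, Iyd were -0.96, -0.77, -0.86, -0.76 and -0.97. Nkx2-1 stood at 2.92 and Tshr at 1.90 on acrylamide array 4, within their controls of 2.64 to 3.46 and 1.26 to 2.40. Over both thyroid lists, then, acrylamide array 1 was lowest, arrays 2 and 3 intermediate and array 4 near control: the mean of the synthesis list was -3.77, -0.99, -1.25 and -0.50 on the acrylamide arrays against -0.43, -0.26, -0.22 and -0.68.

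Thyroid hormone deiodinases, transporters, receptors and targets lay on both sides of 0. Of 12 members 7 were positive, with a median of 0.16 and 0 not overlapping, and the median was -0.01 with normexp. Slco1a4, an organic anion transporter that carries thyroid hormone, differed by -1.53 (SE 0.55), and by -1.07 without acrylamide array 1. Dio1, the outer and inner ring deiodinase, stood at 0.22, 0.42, 0.48 and -0.82 in controls and at -5.12, 0.05, -1.25 and 1.24 with acrylamide (-1.34, SE 1.17; -0.06 without acrylamide array 1). Its acrylamide arrays thus included both the lowest and the highest value.

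C cell genes followed the follicular pattern. Of 15 members 13 were negative, with a median of -1.58, which was -0.57 without acrylamide array 1. Their mean was -3.55, -0.21, -0.19 and 0 on the acrylamide arrays and 0, 0.29, 0.75 and 0.41 in controls. Cplx2, a complexin of regulated secretion, stood at 0.03, 0.27, 0.58 and 0.34 in controls and at -2.11, -0.81, -0.07 and -0.84 with acrylamide (-1.26, SE 0.39), with all acrylamide arrays below the controls. Parathyroid content varied in both groups: the mean of 5 markers was -3.51, -1.44, -1.43 and -1.26 in controls and -4.77, -1.53, -3.67 and -0.96 with acrylamide. Pth, parathyroid hormone, was saturated on 5 arrays and read 2.95 on control array 1, -5.54 on acrylamide array 1 and -2.96 on acrylamide array 3, and Casr, the calcium receptor, differed by -2.14 (SE 1.28; -0.77 without acrylamide array 1).

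Glutathione transferases divided into both directions. Of 21 members 10 were positive and 11 negative, with a median of -0.09, and the arrays did not overlap for 7 of them, 4 higher and 3 lower, beside 9.16% of all genes. Gstm2 stood at -0.58, -1.19, -0.88 and -0.82 in controls and at 1.91, -0.24, 0.61 and -0.16 with acrylamide (1.39, SE 0.45, and 0.93 without acrylamide array 1). Gstm4 differed by 0.79 (SE 0.26) and Gsto1, an omega class enzyme, by 0.69 (SE 0.26). Gsta4, an alpha class enzyme that conjugates hydroxynonenal, stood at 5.30, 5.4, 5.52 and 5.16 in controls and at 2.47, 4.15, 4.36 and 4.92 with acrylamide (-1.37, SE 0.46; -0.87 without acrylamide array 1).

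Values by enzyme class are given as a description, since the classes were read only after the values were seen. The mu class genes Gstm1, Gstm2, Gstm4, Gstm5 and Gstm3 stood at 0.95, 1.39, 0.79, 0.45 and 0.01. The alpha class genes Gsta4, Gsta3 and Gsta1 stood at -1.37, -0.84 and -0.76, and Gsta2 at 0.22 with an SE of 1.14. The theta class genes Gstt1, Gstt2 and Gstt3 stood at -0.91, -0.81 and -0.09, and Gstk1, of the kappa class, at -0.44. Without acrylamide array 1, Gsta3, Gsta1 and Gstt1 stood at -0.38, -0.38 and -0.45 and Gsta2 at 0.73. Of the mu class, Gstm2, Gstm4, Gstm5 and Gstm3 then stood at 0.93, 0.56, 0.27 and -0.07. Genes of one class are similar in sequence, and cross-hybridisation between their probes was not tested. Gstm1 to Gstm5 therefore need not be separate readings. Without acrylamide array 1 the count of genes that did not overlap was again 4 higher and 3 lower, beside 9.72% of all genes.

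Genes of acrylamide oxidation and of the response to electrophiles lay on both sides of 0. Cyp2e1 stood at -2.40, -1.44, -3.49 and -3.47 in controls and at -1.67, -0.94, -1.46 and -1.63 with acrylamide (1.28, SE 0.45), and control array 2 lay among the acrylamide arrays. The list of oxidation and hydrolysis held 4 positive and 4 negative genes (median 0.14). Of 19 targets of NRF2, the transcription factor that responds to electrophiles, 10 were positive (median 0.07). In 2 of them all acrylamide arrays lay lower, beside 7.26% of all genes. One of these was Nfe2l2, which encodes NRF2 itself, at 2.28, 2.38, 2.53 and 2.15 in controls and 1.50, 1.86, 2.12 and 1.73 with acrylamide (-0.53, SE 0.20). Nqo1, a quinone reductase, stood at 0.39 (SE 0.32) and Srxn1, sulfiredoxin, at -0.43 (SE 0.36; -0.12 without acrylamide array 1), each with overlapping groups. Of 16 peroxide and superoxide enzymes 10 were negative, among them Gpx2, a glutathione peroxidase (-1.46, SE 0.52), while Prdx3, the mitochondrial peroxiredoxin, stood at 0.74 (SE 0.29). Leaving out acrylamide array 1 gave -0.99 for Gpx2 and 0.51 for Prdx3.

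**Figure D3:**
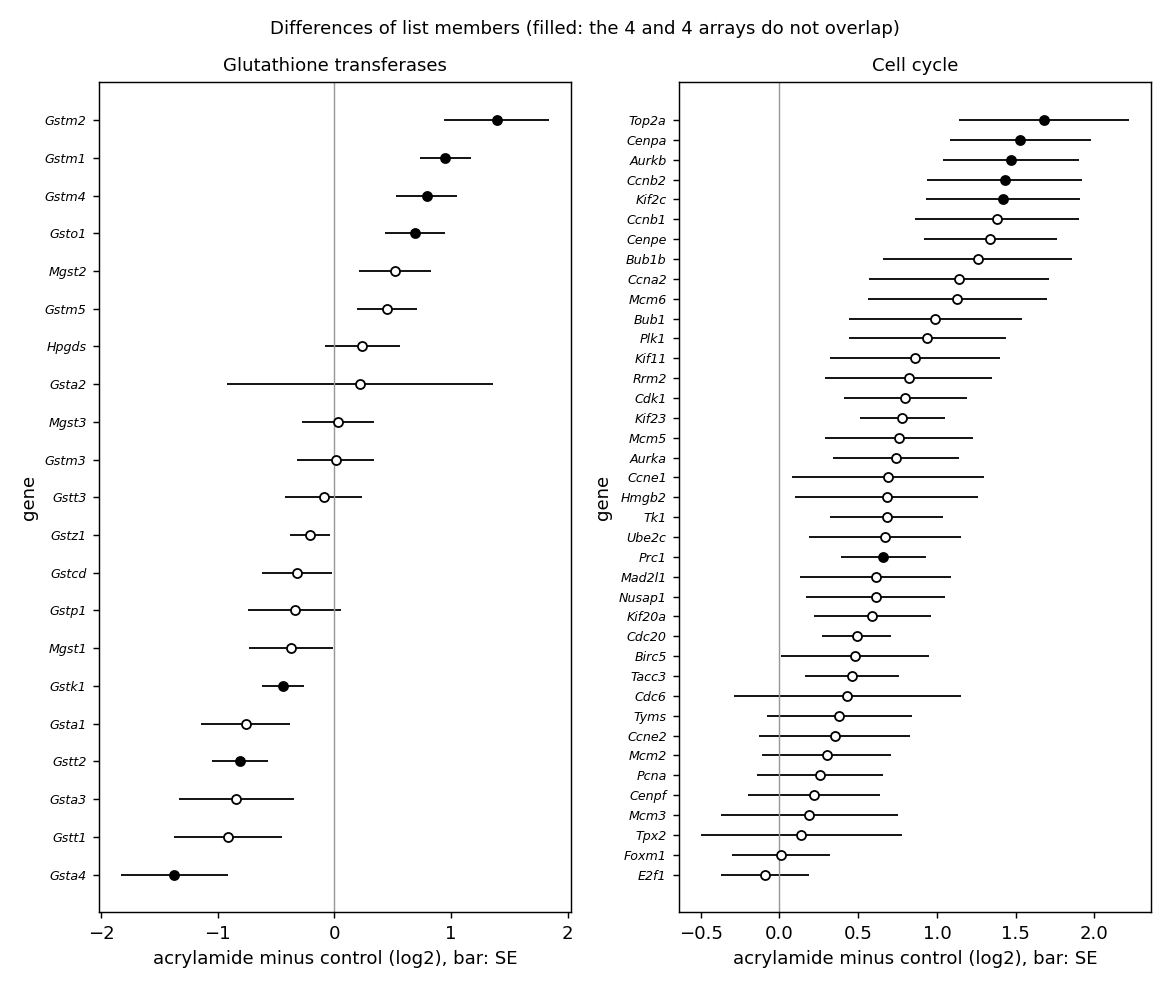
Difference between acrylamide and control (log2, points) with its standard error (bars) for 21 glutathione transferases and for the 39 cell cycle genes on the array; filled points mark genes whose 4 acrylamide and 4 control arrays do not overlap. The transferases lie on both sides of 0, and all cell cycle genes but E2f1 lie above 0.

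Genes of cell division mostly averaged higher with acrylamide. Of 38 members 37 were positive, with a median of 0.68, beside 43.3% of all genes, and 6 lay higher on all acrylamide arrays, beside 1.9%. Top2a, the topoisomerase of dividing cells, stood at -2.54, -2.60, -1.87 and -2.15 in controls and at -0.61, 1.06, -1.72 and -1.18 with acrylamide (1.68, SE 0.54). Aurkb, a mitotic kinase, stood at -5.55, -5.39, -5.54 and -5.51 in controls and at -3.90, -2.72, -4.59 and -4.90 with acrylamide (1.47, SE 0.43), and 1 of 4 control arrays was well above background. Cenpa, the centromeric histone, was well above background on no control array and was at least 2.75-fold higher on the scale used here. Ccnb2, a mitotic cyclin, stood at -2, -0.46, -2.69 and -2.47 with acrylamide against -4.09 to -2.90. Kif2c, a mitotic kinesin (1.42, SE 0.49), and Prc1, a protein of the spindle midzone (0.66, SE 0.27), completed the group that did not overlap. Ccnb1, cyclin B1, stood at -2.86 on acrylamide array 4, within its controls of -3.27 to -2.49, and differed by 1.38 (SE 0.52).

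In every one of these genes the highest value was on acrylamide array 2. The mean of the list was 0.15 on that array and -1.52, -1.56 and -1.81 on acrylamide arrays 1, 3 and 4, against -2.30, -2.03, -1.78 and -1.67 in controls. On array 2 the list of T cell and thymocyte genes averaged 1.13, against -3.65 to -1.43 on the other 7 arrays. Without array 2 the cell cycle median was 0.28, with 29 of 38 positive. On slide 1, which holds that array, the median was 1.34, and on slide 2 it was -0.11. With normexp the median was 0.47, with 34 of 38 positive, and the dim genes Cenpa, Aurkb and Kif2c stood at 0.14, 0.28 and 0.36.

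The windows upstream of 4 of these genes are shown because members of the list share letters there. They are the 250 bases before the annotated start, from RefSeq on GRCr8, with CCAAT and TTTGAA, searched on both strands, in capitals. CCAAT is the letters of the box bound by NF-Y, and TTTGAA belongs to the cell cycle homology region. Of the 31 cell cycle genes in the table, 22 (71%) held CCAAT and 12 (38.7%) held TTTGAA, against 34.3% and 16% of all 27457 promoters of the same length. These are counts of letters and not of bound sites. The window of Kif2c, which is not shown, holds neither CCAAT nor TTTGAA, and that of Ccnb1 holds no TTTGAA. The windows lie at chr2:33655226-33655475 (Ccnb1), chr8:79981659-79981908 (Ccnb2), chr6:31431553-31431802 (Cenpa) and chr10:84473094-84473343 (Top2a), all on the minus strand, and hold 2, 3, 2 and 4 copies of CCAAT.
Ccnb1: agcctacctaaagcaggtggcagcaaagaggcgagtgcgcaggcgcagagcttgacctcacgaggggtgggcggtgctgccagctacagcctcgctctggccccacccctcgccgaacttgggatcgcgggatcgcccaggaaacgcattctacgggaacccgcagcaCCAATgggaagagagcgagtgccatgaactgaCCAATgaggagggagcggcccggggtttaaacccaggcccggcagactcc
Ccnb2: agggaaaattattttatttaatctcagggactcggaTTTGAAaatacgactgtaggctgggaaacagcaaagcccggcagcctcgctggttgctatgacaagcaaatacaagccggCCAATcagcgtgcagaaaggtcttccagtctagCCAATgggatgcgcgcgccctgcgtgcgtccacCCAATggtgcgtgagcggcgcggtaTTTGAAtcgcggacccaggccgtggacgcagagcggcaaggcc
Cenpa: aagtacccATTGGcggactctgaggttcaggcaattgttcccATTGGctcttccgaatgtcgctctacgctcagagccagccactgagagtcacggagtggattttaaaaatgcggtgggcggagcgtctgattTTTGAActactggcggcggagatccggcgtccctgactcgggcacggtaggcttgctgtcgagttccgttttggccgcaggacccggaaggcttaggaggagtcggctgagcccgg
Top2a: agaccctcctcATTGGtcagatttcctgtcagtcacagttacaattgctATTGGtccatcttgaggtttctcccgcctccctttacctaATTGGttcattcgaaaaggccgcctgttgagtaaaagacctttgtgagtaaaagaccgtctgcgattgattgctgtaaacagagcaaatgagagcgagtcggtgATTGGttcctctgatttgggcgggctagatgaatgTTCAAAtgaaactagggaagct
ATTGG and TTCAAA are the same letters read on the other strand.

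Chaperones and sensors of the unfolded protein response mostly averaged lower with acrylamide. Of 27 members 25 were negative, with a median of -0.61, beside 43.3% of all genes above 0, and 3 lay lower on all acrylamide arrays, a share near the 7.26% of all genes. Atf6, a membrane-bound transcription factor that senses unfolded proteins, stood at 0.33, 0.15, 0.55 and 0.72 in controls and at -0.16, -0.32, -0.32 and -0.41 with acrylamide (-0.74, SE 0.19; -0.78 without acrylamide array 1). Its acrylamide arrays lay close together, and array 1 was the highest of them. Eif2ak3, the kinase Perk, stood at -0.58, -0.66, -0.47 and -0.59 in controls and at -2.24, -0.88, -0.90 and -1.22 with acrylamide. For the chaperone Hspa5 the groups overlapped, with 3.83, 5.76, 5.56 and 5.95 on the acrylamide arrays against 5.57 to 6.10 (-0.61, SE 0.44; -0.13 without acrylamide array 1). The list mean was -0.13, 1.15, 0.92 and 1.40 on the acrylamide arrays against 1.29, 1.50, 1.63 and 1.29. Without acrylamide array 1 the median was -0.35, with 23 of 27 negative.

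Of 14 heat shock genes 11 were positive, with a median of 0.24, which was 0.12 without acrylamide array 1. Hspb8, a small heat shock protein of muscle, stood at -1.13, -2.50, -1.18 and -0.72 in controls and at 2.23, -0.71, -0.46 and 0.20 with acrylamide (1.70, SE 0.65; 1.06 without acrylamide array 1). Skeletal muscle markers also lay higher: the mean of the 8 markers measured on all arrays was 3.04, 1.36, 2.94 and 3.67 in controls and 4.69, 3.21, 3.78 and 3.57 with acrylamide, and 8 of 8 were positive (median 0.94). The other 13 of 21 muscle markers were saturated on at least 1 array. With saturated spots kept, 14 of 21 were positive and the median was 0.58. Pygm, the muscle glycogen phosphorylase, stood at 3.12, 0.92, 2.53 and 2.88 in controls and at 5.22, 3.22, 3.62 and 3.78 with acrylamide (1.60, SE 0.56). Of 23 genes of oxidative phosphorylation 20 were positive (median 0.33); without acrylamide array 1 there were 15 (median 0.15), and with saturated spots kept 22 of 30 (median 0.22). Among them were Atp5f1c, an ATP synthase subunit, at 0.83 (SE 0.26) and Ndufa1, of complex I, at -0.42 (SE 0.18). The part of muscle in these lists was not tested.

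Markers of other neighbouring tissues differed between arrays more than between groups. Of 13 squamous epithelium genes 10 were positive (median 0.72, and 0.33 with normexp), and their mean was 0.25, -1.67, 0.88 and -2.48 on the acrylamide arrays against -2.60 to -1.57. Dsc3, a desmosomal cadherin of that list, went the other way, at -5.47, -4.20, -3.33 and -3.51 against -2.63, -2.53, -2.36 and -3.22 (-1.44, SE 0.45, and -0.99 without acrylamide array 1). For cartilage the median of 13 genes was 1.30, but it was 3.40 on slide 1 and -2.08 on slide 2, where control array 4 lies. For T cells the median of 12 genes was 0.22, with 1.97 on slide 1 and -1.94 on slide 2. Without acrylamide array 2 it was -0.96, and without array 1 it was 0.40. Among airway genes, 5 of 7 were negative (median -0.46, and -0.17 without acrylamide array 1), while Scgb3a1, a secretoglobin of airway secretory cells, stood at 3.47 and 5.20 on acrylamide arrays 1 and 2, against -2.64 and -2.11 on the other acrylamide arrays and -2.45 to -0.83 in controls.

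**Figure D4:**
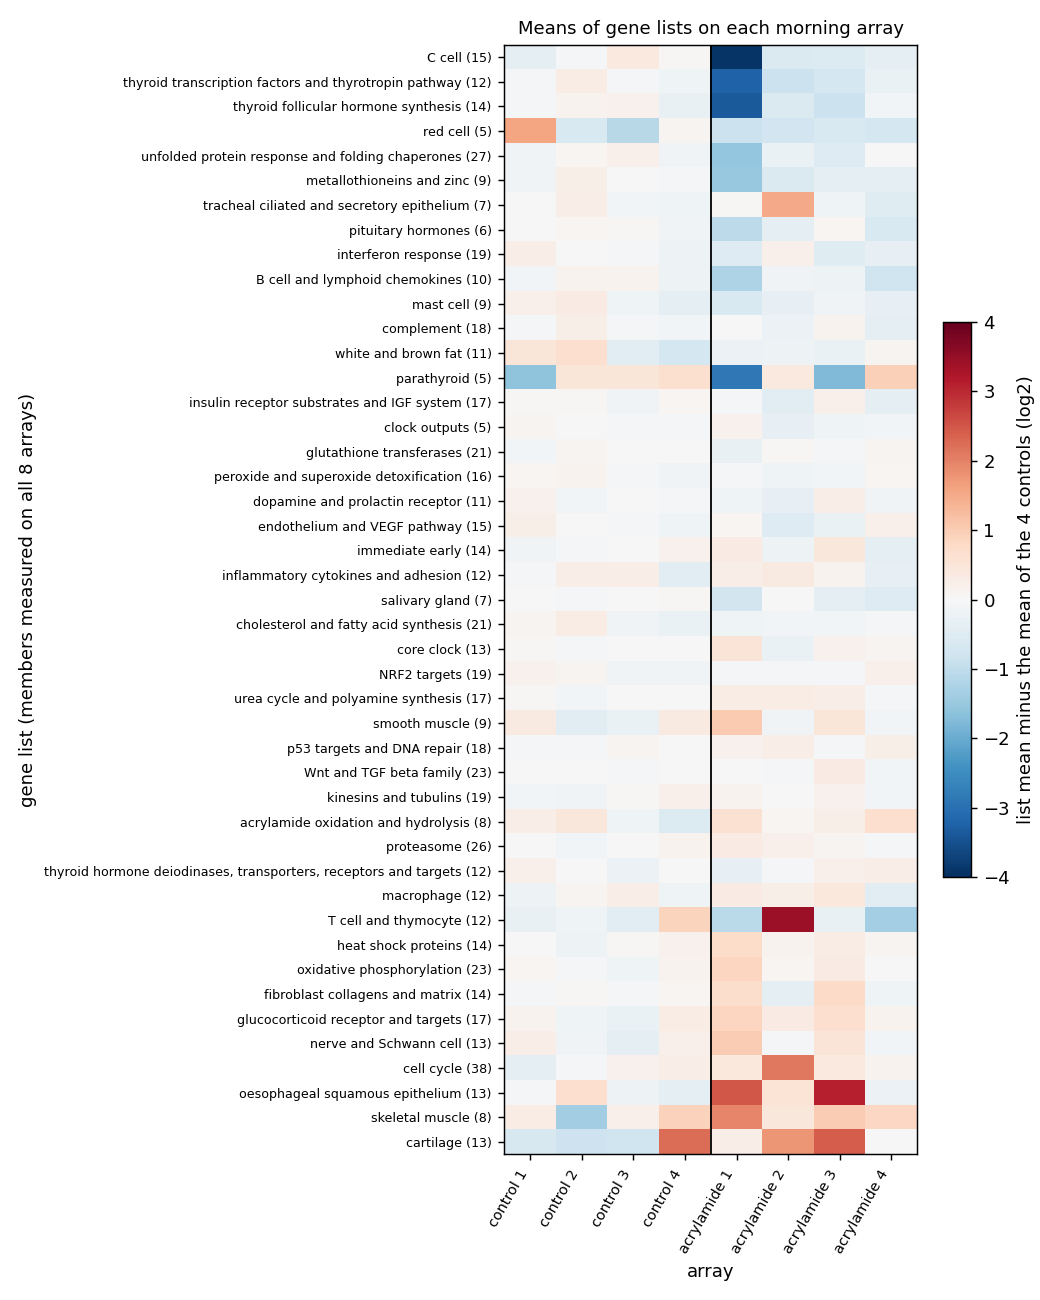
Mean level of each gene list on each morning array, as the difference from the mean of the 4 controls (log2, colour), with lists ordered by their median difference and the number of members measured on all 8 arrays in brackets. Acrylamide array 1 is lowest in the C cell and thyroid lists, array 2 is highest in the T cell and cell cycle lists, and control array 4 is high in cartilage. Mt1 and C4a are each counted more than once in their lists.

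Several vascular and immune genes lay lower on all acrylamide arrays, as did 7.26% of all genes. Kdr, the main receptor of vascular endothelial growth factor, stood at 4.11, 4.15, 4.26 and 4.15 in controls and at 2.57, 3.30, 3.21 and 3.67 with acrylamide (-0.98, SE 0.25; -0.77 without acrylamide array 1). Flt1, its decoy receptor, differed by -0.45 (SE 0.18), and Clec14a, an endothelial lectin, stood at 1.15, 1.14, 1.51 and 1.20 in controls and at 0.24, 0.21, 0.44 and 0.60 with acrylamide (-0.88, SE 0.19). The endothelial list as a whole held 6 positive and 9 negative genes (median -0.08). Without acrylamide array 1, 12 of 15 were negative (median -0.16). Other markers of the same cell type varied. Vwf (-0.08, SE 0.26) and Tek (-0.04, SE 0.31) stood near 0, Plvap (-1.14), Pecam1 (-0.4) and Cdh5 (-0.33) were lower, and Cldn5 (0.43) was higher. Vegfa, the ligand of Kdr and Flt1, differed by -0.62 (SE 0.26) with overlapping groups. That Kdr and Flt1 differ from the rest of the list was not tested.

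Of 10 B cell and lymphoid genes 10 were negative (median -0.41), and without acrylamide array 1 there were 7 (median -0.20). Cxcl13 was the lowest, with Vpreb3, a pre-B cell protein, at -1.09 (SE 0.41). Of 19 interferon response genes 14 were negative (median -0.44, and -0.28 without acrylamide array 1). In 3 of the 19 all acrylamide arrays lay lower, beside 7.26% of all genes. Mx2, an interferon-induced GTPase, had the tightest groups among them, at 4.39, 4.60, 4.63 and 4.48 in controls and 3.80, 3.96, 4.07 and 3.99 with acrylamide (-0.57, SE 0.17). Ifi27 differed by -0.59 (SE 0.22). The complement list held 8 positive and 10 negative entries (median -0.18), with C4a (-0.43) entered more than once among the negative ones. Cfb, complement factor B, stood at 4.39, 4.60, 4.17 and 4.30 in controls and at 0.31, 3.25, 3 and 3.53 with acrylamide, and its difference of -1.84 (SE 0.64) was -1.11 without acrylamide array 1. C2, encoded beside it, differed by -0.93 (SE 0.30). Of 9 mast cell genes 8 were negative (median -0.39), led by Hdc, which makes histamine (-0.56, SE 0.21), and Fcer1a (-0.85, SE 0.37).

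Hormone- and clock-related genes gave smaller sets. Of 17 genes in the list of the glucocorticoid receptor, its targets and related genes, 16 were positive, with a median of 0.36. In 1 of the 17 all acrylamide arrays lay higher, beside 1.9% of all genes. Sgk1, a glucocorticoid-induced kinase, stood at -1.04, -1.36, -0.99 and -1.19 in controls and at -0.77, -0.18, -0.81 and -0.38 with acrylamide (0.61, SE 0.21). Fkbp5, an immunophilin induced by glucocorticoids, stood at 0.27, -0.88, -0.42 and 0.62 in controls and at 0.90, 2.40, 1.49 and 0.22 with acrylamide (1.36, SE 0.50), with array 4 inside the controls. On slide 2 the list median was 0.01. Without acrylamide array 1 it was 0.24, with 13 of 17 positive.

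Core clock genes lay on both sides, with 8 of 13 positive and a median of 0.06. Bmal1, the positive factor of the clock, differed by 0.49 (SE 0.22), Nr1d1, its repressor, by 1.08 (SE 0.58) and Per1 by 0.61 (SE 0.49), and the groups overlapped in each. When acrylamide array 1 was left out these were 0.64 for Nr1d1 and 0.21 for Per1, and the list median was -0.08. Of the clock outputs, Hlf stood at -4.87, -4.53, -5 and -4.90 in controls and at -7.41, -5.90, -6.16 and -6.03 with acrylamide (-1.55, SE 0.34; -1.20 without acrylamide array 1 and -0.60 with normexp). Nfil3, a repressor that competes with Hlf for the same DNA element, stood at -1.99, -2.22, -2.52 and -2.37 in controls and at -0.52, -1.94, -1.36 and -1.78 with acrylamide (0.87, SE 0.32; 0.58 without acrylamide array 1). Dbp, a paralog of Hlf, was level at -0.11 (SE 0.20), and both its other probes had the opposite sign. Hlf and Nfil3 thus lay on opposite sides without overlap, and Hlf was near background, well above it on 3 control and 1 acrylamide arrays.

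Among metabolic and stress lists, 7 of 9 entries of the metallothionein and zinc list were negative (median -0.54). Mt1 (-1.28) was entered there more than once, so the distinct genes were fewer. Mt2A, a metallothionein, stood at 4.17, 4.85, 3.98 and 3.62 in controls and at 1.19, 2.99, 3.06 and 3.33 with acrylamide (-1.51, SE 0.48, and -1.03 without acrylamide array 1). Mtf1, the zinc-sensing factor that drives metallothioneins, stood at 0.71 (SE 0.26), and at 0.06 with normexp. Of 26 proteasome subunits 19 were positive (median 0.14, and 0.05 without acrylamide array 1), with Psmc3 (0.66, SE 0.24) and Psmb7 (0.52, SE 0.20) higher on all acrylamide arrays. Irs4, an insulin receptor substrate, stood at -3.13, -2.42, -3.88 and -3.07 in controls and at -7.26, -4.08, -4.56 and -4.72 with acrylamide (-2.03, SE 0.66; -1.33 without acrylamide array 1 and -0.90 with normexp), and Igfbp7 differed by -0.66 (SE 0.25). In the list of p53 targets and DNA repair, Sesn1, a sestrin well above background on 1 of 4 control arrays, stood at 1.92 (SE 0.66; 0.56 with normexp) and Bbc3, the pro-apoptotic Puma, at -1.01 (SE 0.40), both with overlapping groups. Sesn1 and Bbc3 stood at 1.35 and -0.70 without acrylamide array 1. The p53 and DNA repair list had a median of 0.11 with 11 of 18 positive.

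The remaining lists had medians from -0.78 to 0.40. Red cell genes were all negative (5 of 5, median -0.78), with Ahsp highest, at 2.69, on control array 1. Nerve and Schwann cell genes were positive in 10 of 13 (median 0.40) and fibroblast genes in 9 of 14 (median 0.35), and without acrylamide array 1 these medians were 0.11 and 0.12. Wnt and TGF beta family members were positive in 12 of 23 (median 0.13). Tgfb2 differed by -0.80 (SE 0.27), while another of its probes stood at 0.48 (SE 0.31). Kinesins and tubulins (0.13), macrophages (0.16), smooth muscle (0.11), urea cycle and polyamine synthesis (0.08), cholesterol and fatty acid synthesis (-0.03), salivary gland (-0.03), inflammatory cytokines (-0.04), immediate early genes (-0.08), dopamine and prolactin receptors (-0.09), the IGF system (-0.13) and fat (-0.15) had medians between -0.15 and 0.16. The salivary gland median was -0.50 without acrylamide array 1, with 6 of 7 negative, and smooth muscle stood at -0.18. Pomc, the precursor of corticotropin, stood at -0.50, -0.09, -0.65 and -0.53 in controls and at -1.27, -0.91, -1.06 and -0.98 with acrylamide (-0.61, SE 0.19), lower on all 4 arrays. Its list, of 6 genes of pituitary hormones, transcription factors and secretion, had a median of -0.45 (-0.39 without acrylamide array 1). Its lowest member was Chgb, also in the C cell list, at -1.76, and at -0.57 without that array.

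Whether the morning difference departs from that in females at night was tested in a fit of the 16 female arrays. Limma called 0 of 30234 probes (0%), with 4049 (13.4%) at an unadjusted p under 0.05. The night arrays were on another slide and in another scan session, and their groups lay in different array rows, so time cannot be told apart from these. Night arrays also varied less, with a median SD of 0.16 in controls and 0.21 with acrylamide.

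The genes named next had the smallest p for this difference in each direction. A morning difference of the same sign largely follows from that choice. Bend7 differed by -1.18 in the morning and 0.06 at night (difference -1.25, SE 0.25, adjusted p = 0.294 in limma), and Gpr62 by -1.17 and 0.16. Jrkl (-0.59 and 0.50) and Tmem214 (-0.66 and 0.28) completed the lower set. In the higher set, Gstm1 stood at 0.95 in the morning and -0.14 at night, Lrrc14b at 2.98 and -1.31, and Cntfr at 0.55 and -1.18. Rapgef4 was well above background on no morning control array. On the scale used here it was at least 2.10-fold higher in the morning, with a night difference of -0.44. With the normexp correction the fitted morning difference was -0.02 for Cntfr and -0.01 for Rapgef4. The adjusted p of each was 0.294. Cxcl13 was lower at both times, by -2.10 in the morning and -0.88 at night (difference -1.22, SE 0.46).

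Gene lists stood on opposite sides at the 2 times in several cases. The unfolded protein response list had a median of -0.61 in the morning and 0.24 at night, and that of skeletal muscle 0.94 and -1.54. The thyroid synthesis list stood at -0.93 and 0.10, C cells at -1.58 and 0.04 and B cells at -0.41 and 0.49. Cell cycle genes were positive at both times, at 0.68 and 0.33. These differences between lists were not tested.

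**Figure D5:**
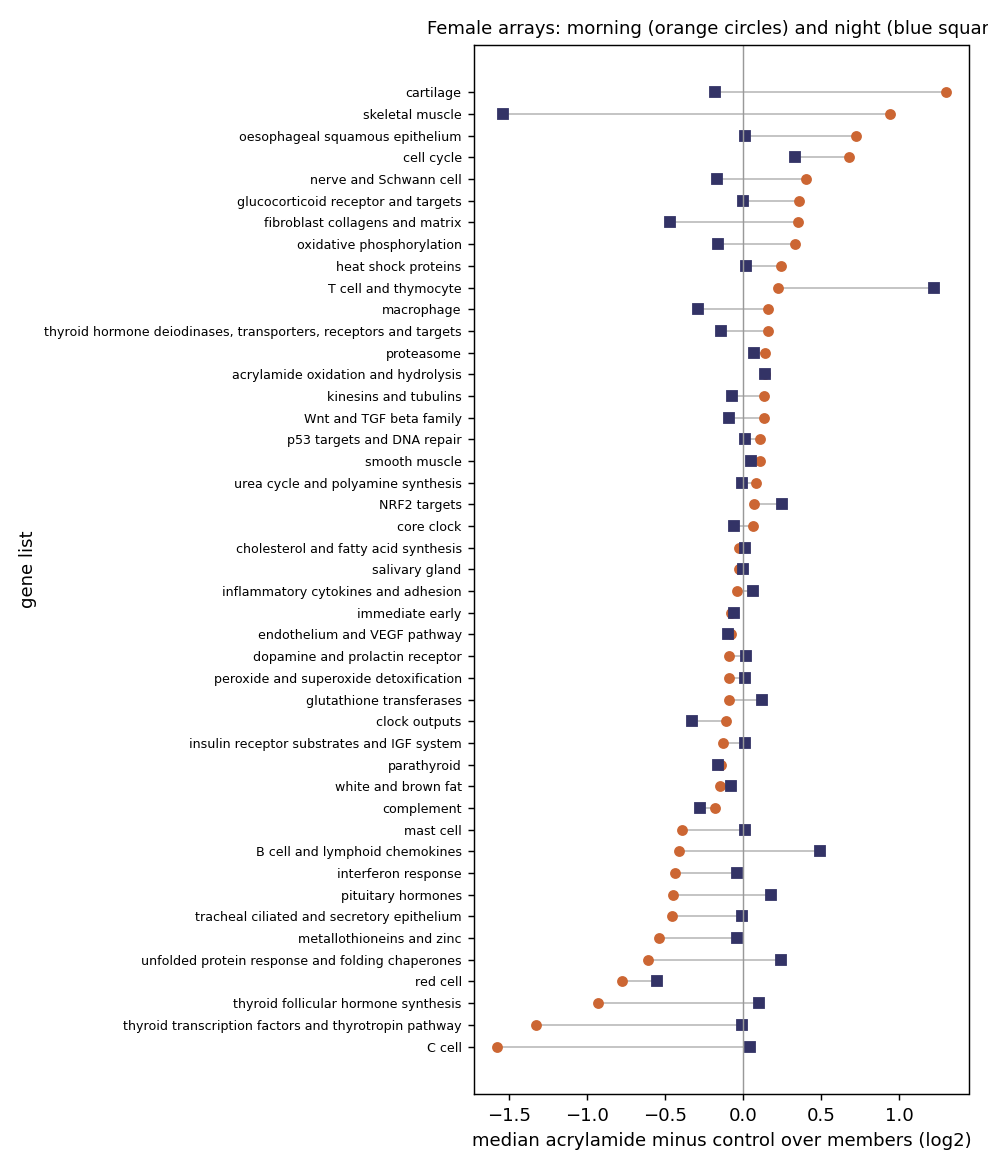
Median difference between acrylamide and control over the members of each gene list (log2) in females in the morning (orange circles) and at night (blue squares), each from 4 against 4 arrays. The lists of C cells, thyroid hormone synthesis and thyroid transcription factors lie near 0 at night and below 0 in the morning. The list of deiodinases, transporters, receptors and targets lies at 0.16 in the morning and -0.14 at night. Skeletal muscle lies above 0 in the morning and below 0 at night.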

How the data were processed

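RNA of each sample was hybridised to a 1-colour Agilent rat array. Per the file headers, the authors deposited Agilent Feature Extraction 10.1.1.1 output, with spot intensity values that were background-subtracted and detrended within the array, and other columns, flags for saturation, outliers and background. The deposited series matrix holds log2 values whose columns have a median of 0. They correlated with the log2 scanner signals at r = 1, and their remaining processing is not given in the sources used here.

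For the 8 morning arrays, log2 processed intensity minus the array's 75th percentile was used. Control probes, outlier spots and saturated spots were left out, and spots of 1 probe were averaged. Limma 3.58.1 in R 4.3.3 was fitted to 30234 probes, with Benjamini-Hochberg adjustment over all of them. A gene was represented by its brightest probe. Names came from accessions (18349 probes), symbols (2505) or synonyms (536), and 8977 probes kept the name on the array. The number of arrays limits precision.

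Genes were named by a rule: the 12 with the smallest p in each direction, 2 per list, anchor genes, and 5 in each direction for morning minus night. Other members named were chosen after their values were seen. The members and the 46 gene lists were chosen with earlier results of these data known. Alternatives covered background, scaling, saturation, weights, slide, pooled spread and single arrays left out. Those with array row, and without acrylamide arrays 1 and 2 together, were chosen after seeing the data. The calculations were tested on simulated data. A few genes that the rule names are not reported here.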

Additional observations from a re-analysis of the deposited data

Results flagged for a closer look

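Within the groups of 4 arrays, 20 of 344 checks (5.81%) found a sample set far apart from the other 3, where chance alone gives about 1 in 20. On acrylamide array 1, Hlf stood at -7.41, Kifc2 at -0.25, Atp5f1c at 5.17, Cfb at 0.31, Mt2A at 1.19, Calca at -6.73, Nkx2-1 at -4.35 and the mean of the C cell list at -3.55. On acrylamide array 2, the mean of the cell cycle list stood at 0.15. On acrylamide array 4, Ass1 stood at -4.41, against -1.87 to -1.71 on the other acrylamide arrays, Sry at -2.79, the mean of the NRF2 list at 0.22 and that of the urea cycle list at 0.05. Sry is a gene of the male sex chromosome, and its probe read -2.79 to -2.21 on these arrays of females. What that probe measured here was not tested. On control array 4, the cartilage genes Comp and Col2a1 stood at -1.20 and 2.71, and the mean of the cartilage list at -0.59. On control array 3, Clec14a stood at 1.51 and Calca at 5.25. On control array 1, Ass1 stood at -4.55, against -4.68 to -4.66 on the other controls, and the mean of the parathyroid list at -3.51.

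List means for which every morning acrylamide array lay on one side of the control mean and every night array on the other were also picked out. The mean of the mast cell list differed by -0.35 in the morning and 0.14 at night, and that of the unfolded protein response list by -0.59 and 0.26. The difference between times was not tested for these means.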

How the results depend on the processing

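The count of probes called by limma was 0 except with the spread pooled over all 24 arrays (111) and without acrylamide replicate 4 (1, Ass1), and leaving out single arrays gave 0 to 1. Acrylamide arrays lay all above the controls for 446 probes, for 294 with normexp, 258 with 1 probe per gene, 1220 without acrylamide arrays 1 and 2, and 507 to 1470 without single arrays. They lay all below for 1650 probes, for 986 with 1 probe per gene, 3238 without acrylamide arrays 1 and 2, and 2072 to 3645 without single arrays; with fewer arrays, separation is easier by construction. For morning minus night, 0 probes were called, 2 with quantile normalization and 0 to 17 without single arrays. Of 134 genes, 128 had the same sign under all 23 alternatives. Many of these genes were chosen for a small p in the same arrays. Several alternatives, such as the pooled spread or leaving out dim probes, cannot change a fitted difference. The count is therefore partly fixed by construction. With normexp, Vash2 stood at -0.14, Cntfr at -0.02 and Rapgef4 at -0.01. Scgb3a1 stood at -0.67 without acrylamide arrays 1 and 2. Sry stood at 0 with quantile and 0.01 with median scaling, 0.03 with slide as a block, 0.01 in the series matrix, and -0.08 to 0.12 without single arrays, 0 without control replicate 2. Cd3e, a T cell receptor subunit, stood at -0.06 with quantile normalization, -0.55 with array row, -0.73 with slide and row, -1.46 without acrylamide arrays 1 and 2, and -1.63 to 0.74 without single arrays. The cause was not tested in these cases. With the replicate number as a block, 0 probes were called. Same-numbered arrays deviated with correlations of 0.176, 0.161, -0.105 and -0.133. No label says whether the numbers pair the samples, and these few weak correlations cannot decide it.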
